A study of Equus caballus with 32 samples.

Results

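Sphingolipids are membrane lipids built from serine and a fatty acid, and ceramide is the branch point from which sphingomyelin, glycosphingolipids and sphingosine 1-phosphate are made. Serine palmitoyltransferase, whose core subunits are SPTLC1 and SPTLC2 with the small subunit SPTSSA, carries out the first and rate-limiting step. The ORMDL proteins sit in the endoplasmic reticulum and restrain that enzyme when ceramide is plentiful. Ceramide synthases then attach a second fatty acid (CERS2 prefers very long chains, CERS5 and CERS6 prefer palmitate), and DEGS1 introduces the double bond that turns dihydroceramide into ceramide. In human genetics ORMDL3 is best known as a gene of the 17q21 childhood asthma locus, where the asthma risk alleles go with a higher ORMDL3 level.

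The genes described are the ORMDL family and the sphingolipid synthesis genes ORMDL1, ORMDL2, ORMDL3, SPTLC1, SPTLC2, SPTSSA, CERS2, CERS5, CERS6 and DEGS1, taken by gene name from the expression table. All 10 were present, out of 21357 genes in the table, each as a single row. They were measured by RNAseq in tracheal wash (TW) derived cells of 16 adult male Thoroughbred racehorses kept at 1 yard under 1 trainer. Each horse gave a library at T1, about 2.5 months into intense training, and a library at T0, after about 2 months at rest, so there were 32 libraries. By the study's text the horses were mostly at pasture for T0 and housed for T1, so training cannot be told apart from housing or time. The study's text also classes the horses by the cytology of the wash at T1. High_N horses (n = 3) had a neutrophil share above the accepted limit and are set against the other 13. Horses with haemosiderophages, the sign of exercise-induced pulmonary haemorrhage (EIPH, n = 11), are set against 5 unaffected horses. Of the High_N horses, 2 had EIPH and 1 was unaffected, and no untrained horses were followed in parallel.

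Levels are log2 values as deposited, which appear to be adjusted for library size, and differences are log2 differences on that scale. They are not per length, so levels of different genes are not ranked against each other. The deposited values hold no read counts, so the depth behind each value is unknown. Library totals on the linear scale, obtained by undoing the log2, were 2.55e+07 to 3.90e+07 at T1 and 2.50e+07 to 3.29e+07 at T0. A TW is a mixture of macrophages, other immune cells and shed epithelium, and in such bulk RNA fewer cells of a type and less RNA per cell cannot be told apart. The mean log2 level of 14 macrophage genes (15 entries) ran from 13.40 to 14.58 over the T1 libraries and from 13.01 to 14.67 over the T0 libraries. That of 24 ciliated cell genes ran from 7.83 to 11.79 at T1 and from 7.92 to 11.90 at T0. The lowest value of a single gene in any library was 5.07 in the macrophage list and 4.77 in the ciliated list. 1 entry of SCGB1A1, a club cell marker, averaged 1.13, ELANE averaged -1.47 and CPA3 -1.12, near the floor of the table. SCGB1A1 has another entry that passed the filter on low values, as all 9 secretory genes measured were tested.

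ORMDL3 (ENSECAG00000023078) was upregulated at T1. Its level averaged 10.21 ± 0.48 at T1 and 9.86 ± 0.26 at T0 (SD, n = 16 horses each). At T1 the lowest, median and highest values were 9.51, 10.10 and 11.11, against 9.44, 9.88 and 10.38 at T0. The time points overlapped, although 6 of the 16 T1 values lay above every T0 value. The paired difference was 0.35 (95% interval 0.15 to 0.55), or 1.27-fold, and the level was higher at T1 in 12 of 16 horses. ORMDL3 passed the test across all genes (limma with the horse as block, adjusted p = 0.0435), and the exact sign-flip test over the 16 horses gave p = 0.00281, two-sided and unadjusted. Of the 10 members 1 was called, against 6.35% of all 14643 genes tested (569 upregulated and 361 downregulated). By its p-value ORMDL3 ranked 651 among these genes. The study itself named the ORMDL3 increase from these same samples, so the value here is no independent evidence of it.

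**Figure D1:**
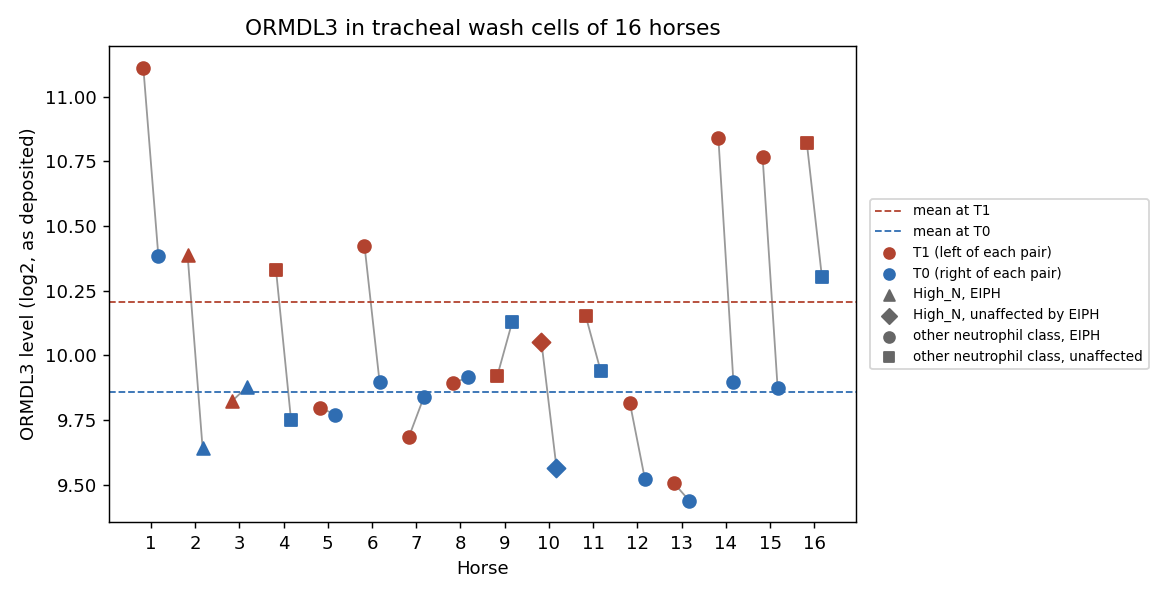
Level of ORMDL3 (log2, as deposited, y axis) in each of 16 horses (x axis), with T1 left and T0 right in each joined pair, the means as dashed lines and the marker shape giving the neutrophil and EIPH class. ORMDL3 was higher at T1 in 12 of 16 horses, and horses 1, 14, 15 and 16 had T1 levels of 10.77 to 11.11.

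The size of the difference varied widely among horses. It was 0.94 in horse 14, 0.89 in horse 15, 0.75 in horse 2 and 0.73 in horse 1, while horses 9, 7, 3 and 8 had differences of -0.21, -0.15, -0.06 and -0.02. The SD of ORMDL3 across horses at T1 was 1.85 times that at T0; over the other 9 members this ratio ran from 0.862 for CERS2 to 2.34 for SPTSSA. The call stood close to its threshold: leaving out 1 horse at a time gave differences of 0.31 to 0.39 and adjusted p-values of 0.0251 to 0.0848 in limma, and ORMDL3 passed in 5 of these 16 fits (without horse 5, 7, 9, 12 or 13). Without horses 1, 14, 15 and 16, a set chosen after seeing the data that holds the 4 highest T1 levels, the difference was 0.21 (adjusted p = 0.334 in limma) and no gene of the table passed, against 2065 at an unadjusted p under 0.05.

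The paralogs of ORMDL3 did not pass. ORMDL2 averaged 9.52 ± 0.35 at T1 and 9.38 ± 0.22 at T0 (SD, n = 16 each), a difference of 0.14 (95% interval -0.06 to 0.35, adjusted p = 0.344 in limma), with 8 horses higher and 8 lower. ORMDL1 averaged 8.07 ± 0.40 at T1 and 8.12 ± 0.32 at T0, a difference of -0.05 (95% interval -0.33 to 0.23), and ranged over single horses from -1.24 to 0.82. The 3 ORMDL transcripts are close relatives, and how reads that fit more than 1 of them were assigned was not tested. Within a horse, the ORMDL3 difference exceeded that of ORMDL1 in 12 of 16 horses, by a mean of 0.40 ± 0.61 (SD), and that of ORMDL2 in 10 of 16 horses, by 0.20 ± 0.35; these 2 values are given as a description, since ORMDL3 was singled out for its change.

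None of the 3 serine palmitoyltransferase subunits passed. SPTLC1, the subunit shared by all forms of the enzyme, averaged 10.98 ± 0.20 at T1 and 10.89 ± 0.13 at T0, the smallest spread of the 10 genes at either time point, with 12 of 16 horses higher and a mean difference of 0.09 (95% interval -0.04 to 0.22). SPTLC2, a catalytic partner of SPTLC1, averaged 10.27 ± 0.32 at T1 and 10.43 ± 0.36 at T0, a difference of -0.16 (95% interval -0.38 to 0.06). SPTSSA, the small subunit that raises the activity of the enzyme, had a difference of -0.17 (95% interval -0.38 to 0.03) and was lower in 9 of 16 horses. SPTSSA values spread more at T1 (lowest 9.51, median 10.22, highest 11.30) than at T0 (10.09, 10.30 and 10.69), with an SD 2.34 times as large at T1, and 7 of its T1 values lay below every T0 value while 1 lay above.

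Among the ceramide synthases, CERS5 averaged 10.99 ± 0.36 at T1 and 10.77 ± 0.27 at T0 (SD, n = 16 each), a difference of 0.22 (95% interval 0.04 to 0.41) that did not pass after adjustment (adjusted p = 0.110 in limma). The exact sign-flip p for CERS5 was 0.0200, unadjusted, with 10 of 16 horses higher. CERS2 averaged 12.29 ± 0.27 at T1 and 12.12 ± 0.31 at T0, a difference of 0.17 (95% interval -0.01 to 0.34), with 11 of 16 horses higher. CERS6 was the synthase with a negative difference, -0.13 (95% interval -0.37 to 0.10), with averages of 9.35 ± 0.43 at T1 and 9.48 ± 0.34 at T0. DEGS1 averaged 10.83 ± 0.49 at T1 and 10.84 ± 0.40 at T0; its mean difference of -0.01 (95% interval -0.23 to 0.22) held single horses from -1.22 (horse 1) to 0.84 (horse 3). At an unadjusted p under 0.05 in limma there were 2 of the 10 members, ORMDL3 and CERS5, against 28.5% of all genes tested. The median difference of the 10 members was 0.04, against -0.02 for all genes.

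**Figure D2:**
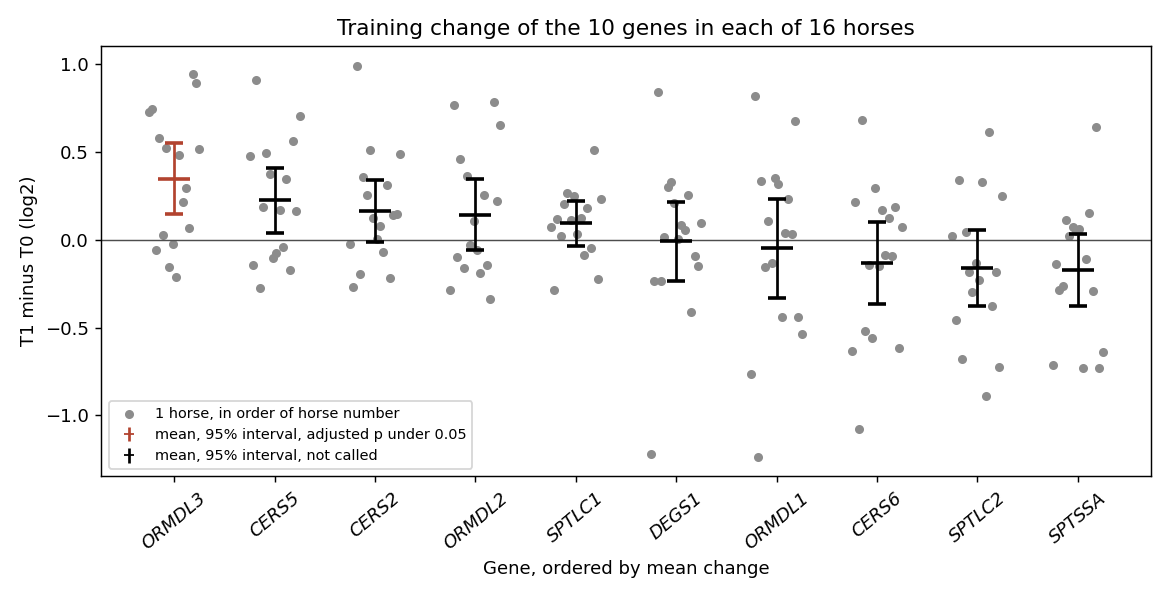
T1 minus T0 (log2, y axis) for the 10 genes, ordered by mean difference (x axis); each grey point is 1 of 16 horses, and the bar is the limma mean with its 95% interval. The interval of ORMDL3 (0.15 to 0.55) lies above 0 and passed adjustment, that of CERS5 (0.04 to 0.41) lies above 0 and did not, and the other 8 intervals include 0.

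The wider pathway was read from lists of genes by role. Among 8 genes of serine palmitoyltransferase and its regulators, ORMDL3 was upregulated and SPTLC3, the alternative catalytic subunit, was downregulated. SPTLC3 averaged 10.01 ± 0.34 at T1 and 10.34 ± 0.27 at T0, a difference of -0.33 (SE 0.09, adjusted p = 0.0446 in limma), with lower values in 14 of 16 horses. Dropping single horses, SPTLC3 kept its call in 5 of 16 fits. Of 7 ceramide synthesis genes tested none passed in limma, and 2 had an unadjusted p under 0.05, CERS5 and CERS4 (difference 0.34, SE 0.15, adjusted p = 0.134). The median difference was 0.02 for the first of these lists and 0.17 for ceramide synthesis.

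Genes that carry ceramide onward to complex lipids gave 2 downregulated genes of 11 tested and none upregulated, with a list median of -0.14. Of the 11 genes, 4 had an unadjusted p under 0.05 in limma, against 28.5% of all genes. CERT1, which transfers ceramide to the Golgi for sphingomyelin synthesis, averaged 10.77 ± 0.42 at T1 and 11.14 ± 0.27 at T0, a difference of -0.37 (SE 0.09, adjusted p = 0.0340 in limma), with 14 of 16 horses lower. B4GALT6, a lactosylceramide synthase, averaged 9.87 ± 0.56 at T1 and 10.48 ± 0.48 at T0, a difference of -0.61 (SE 0.17, adjusted p = 0.0408 in limma), with 12 of 16 horses lower. Dropping single horses, CERT1 kept its call in 7 of 16 fits and B4GALT6 in 5.

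Genes of sphingolipid breakdown gave 3 upregulated genes of 20 tested and none downregulated, with a list median of 0.15. Of the 20 genes, 7 had an unadjusted p under 0.05 in limma, against 28.5% of all genes. NEU1, the lysosomal sialidase that removes sialic acid from gangliosides and glycoproteins, averaged 11.74 ± 0.30 at T1 and 11.39 ± 0.31 at T0 and was higher in 16 of 16 horses by a mean of 0.36 (SE 0.07, adjusted p = 0.0147 in limma). NEU1 kept its call whichever of the 16 horses was dropped. GM2A, the activator protein for ganglioside breakdown, averaged 12.56 ± 0.21 at T1 and 12.21 ± 0.36 at T0 and was higher in 15 of 16 horses by 0.36 (SE 0.08, adjusted p = 0.0299 in limma; 12 of 16 such fits). GLA, the lysosomal alpha-galactosidase, averaged 11.76 ± 0.27 at T1 and 11.51 ± 0.27 at T0 and was higher in 14 of 16 horses by 0.25 (SE 0.07, adjusted p = 0.0440 in limma; 4 of 16 such fits). These 3 genes act in the lysosome.

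None of 14 genes of sphingosine 1-phosphate metabolism and signalling passed in limma, and 2 had an unadjusted p under 0.05. ALDH3A2, which oxidises the fatty aldehyde left by sphingosine 1-phosphate lyase, had a difference of -0.25 (SE 0.09, adjusted p = 0.0895) and PLPP2, a lipid phosphate phosphatase, one of 0.45 (SE 0.18, adjusted p = 0.112). The lists were drawn up with earlier results of these samples known. Each list count stands beside the 6.35% called among all genes and the 28.5% at an unadjusted p under 0.05. In the fit with neutrophil, T cell and ciliated cell markers as covariates no gene of the table passed in limma (1473 at an unadjusted p under 0.05).

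**Figure D3:**
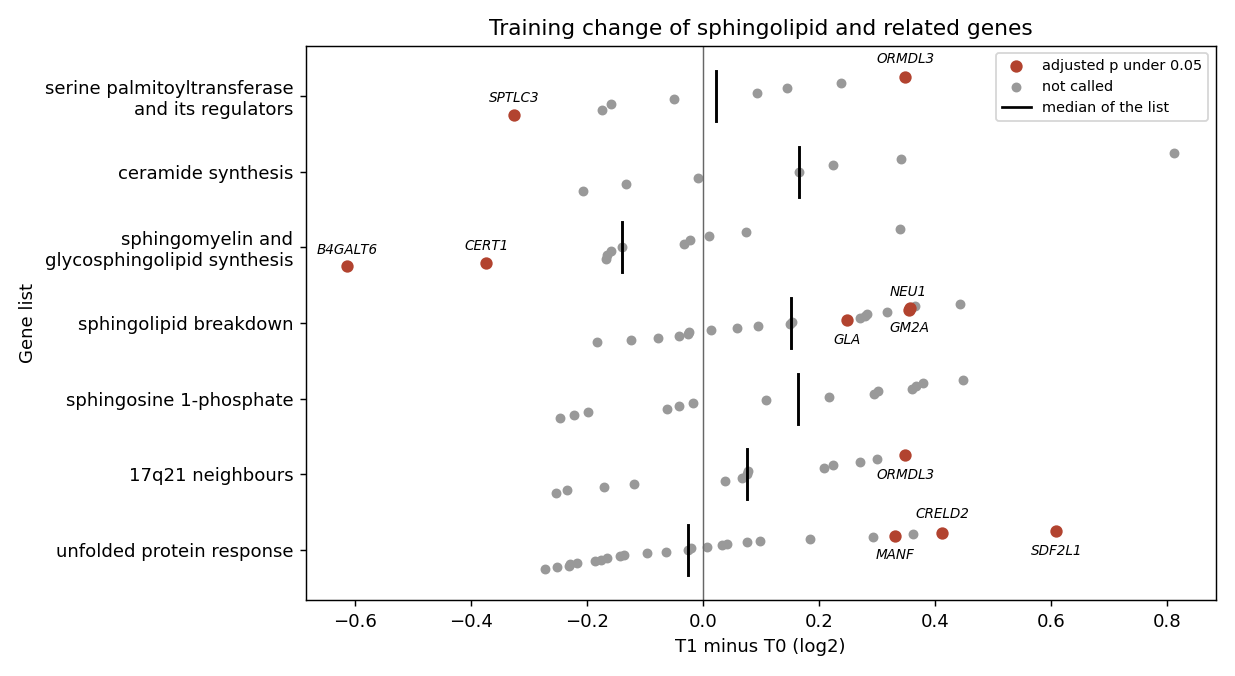
T1 minus T0 (log2, x axis) of each tested gene in 7 lists (y axis); red points passed at an adjusted p under 0.05 in limma and are named, grey points did not, and the black line is the median of the list. NEU1, GM2A and GLA lie to the right of 0, and SPTLC3, CERT1 and B4GALT6 to the left.

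Of the genes of the human 17q21 region, ORMDL3 included, 13 passed the filter on low values. ORMDL3 alone of the 13 was called, against 6.35% of all genes. An unadjusted p under 0.05 in limma was found for 5 of the 13, against 28.5% of all genes. MIEN1 came closest of the others, with 13 of 16 horses higher and a difference of 0.27 (SE 0.08, adjusted p = 0.0532 in limma), followed by PSMD3, a proteasome subunit, at 0.21 (SE 0.07, adjusted p = 0.0643). STARD3, a cholesterol transporter of late endosomes, had a difference of 0.30 (SE 0.12, adjusted p = 0.104), and MED1, a subunit of the Mediator complex, one of -0.23 (SE 0.09, adjusted p = 0.0869). IKZF3, a lymphocyte transcription factor, and ZPBP2 had differences of -0.25 (SE 0.13) and -0.17. GSDMA, GSDMB, LRRC3C and PNMT had mean levels below the minimum of 3 and were not tested. The list median, with ORMDL3 in it, was 0.08.

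Cell culture work in human and mouse has tied ORMDL3 to the ATF6 branch of the unfolded protein response, the programme that expands endoplasmic reticulum folding capacity. Of 25 genes of that response tested, 3 were upregulated and none downregulated, against 6.35% of all genes called. The list median was -0.02 and 11 of the 25 genes were higher at T1. An unadjusted p under 0.05 in limma was found for 8 of them, against 28.5% of all genes. SDF2L1 averaged 10.65 ± 0.52 at T1 and 10.04 ± 0.27 at T0, a difference of 0.61 (SE 0.13, adjusted p = 0.0202 in limma). CRELD2 averaged 10.78 ± 0.32 at T1 and 10.37 ± 0.19 at T0, a difference of 0.41 (SE 0.08, adjusted p = 0.0171 in limma). MANF had a difference of 0.33 (SE 0.08, adjusted p = 0.0299 in limma). Each of the 3, which are endoplasmic reticulum proteins induced by unfolded protein stress, was higher at T1 in 14 of 16 horses. ATF6 itself had a difference of -0.23 (SE 0.13, adjusted p = 0.255 in limma).

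The genes most like ORMDL3 were sought among 10841 named genes with a mean log2 level of at least 7. Over the 32 libraries the highest Pearson r were those of TMEM134 (0.93), LSM10 (0.92), HDHD3 (0.91), PAGR1 (0.91) and TMEM234 (0.91). By the T1 minus T0 difference over 16 horses they were those of STARD5 (0.97), TMEM134 (0.93), TMEM9 (0.92), WDR25 (0.92) and VAMP5 (0.92). These values are a description, the highest of many, over libraries that share horses. Of the 5 genes taken over 32 libraries, r ran from 0.91 to 0.96 within T1 and from 0.66 to 0.84 within T0. The member nearest to ORMDL3 was ORMDL2, with r = 0.71 over the 32 libraries (rank 567).

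Correlations between members over the 16 horses were computed for all 45 pairs at T1, at T0 and for the difference, 135 in all, with permutation p-values adjusted over the 135. For 15 of these both Pearson's r and Spearman's rho passed. At T0 CERS2, CERS5 and DEGS1 went together, with an r of 0.95 between CERS2 and CERS5 (rho 0.91, adjusted permutation p = 0.00135 for r), of 0.87 between CERS2 and DEGS1 (rho 0.88, adjusted permutation p = 0.00135 for r) and of 0.84 between CERS5 and DEGS1 (rho 0.76, adjusted permutation p = 0.00236 for r). CERS2 also passed with CERS5 at T1 (r = 0.79, rho 0.72, adjusted permutation p = 0.00540 for r) and with DEGS1 at T1 (r = 0.72, rho 0.79, adjusted permutation p = 0.0207 for r). CERS5 and DEGS1 passed neither at T1 (r = 0.46, adjusted permutation p = 0.167) nor for the difference (r = 0.32, adjusted permutation p = 0.386, and r = 0.01 without the 2 farthest horses). CERS6 and ORMDL1 went the other way at T0, with an r of -0.75 between CERS2 and CERS6 (rho -0.74, adjusted permutation p = 0.0162 for r) and of -0.74 between CERS2 and ORMDL1 (rho -0.74, adjusted permutation p = 0.0189 for r). Leaving out the 2 horses farthest from the median of CERS2 left r at -0.76 and at 0.91 for CERS5 at T0. For ORMDL1 the r with CERS2 without the 2 horses farthest from the median of ORMDL1 was -0.71. Neither negative relation of CERS2 passed at T1 (CERS6 r = -0.38, ORMDL1 r = -0.29, adjusted permutation p = 0.295 and 0.452 for r). Nor did they pass for the difference (r = -0.61 and -0.62, adjusted permutation p = 0.0605 and 0.0575 for r). ORMDL3 passed with 1 other member in 1 setting, ORMDL2 at T1 (r = 0.72, rho 0.80, adjusted permutation p = 0.0217 for r, and r = 0.59 without the 2 farthest horses).

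The division seen at T0 showed against the markers of cell types as well. Each member was correlated over the 16 horses with the mean log2 level of 8 marker lists, at T1, at T0 and for the difference, 240 relations in all, with adjustment over the 240; both coefficients passed in 33. At T0 CERS2 had an r of 0.93 with the macrophage list (rho 0.93, adjusted permutation p = 0.000800 for r) and of -0.86 with the ciliated list (rho -0.89). CERS5 had 0.92 with the macrophage list (rho 0.91, adjusted permutation p = 0.000800 for r), DEGS1 0.79 (rho 0.78) and SPTSSA 0.71 (rho 0.70). CERS6 and ORMDL1 had -0.79 each with the macrophage list at T0 (rho -0.75 and -0.70), and ORMDL1 had 0.77 with the ciliated list (rho 0.77). Without the 2 horses farthest from the median of the list, the T0 coefficients with the macrophage list were 0.89 for CERS2, 0.89 for CERS5, 0.78 for DEGS1, 0.64 for SPTSSA, -0.75 for CERS6 and -0.62 for ORMDL1.

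The T1 minus T0 differences showed the same for CERS2, CERS6 and ORMDL1. Against the change of the macrophage list, r was 0.86 for CERS2 (rho 0.75, adjusted permutation p = 0.0027 for r), -0.82 for CERS6 (rho -0.72, adjusted permutation p = 0.00320 for r) and -0.77 for ORMDL1 (rho -0.68, adjusted permutation p = 0.00576 for r). Without the 2 horses farthest from the median they were 0.65, -0.68 and -0.69. For DEGS1 the relation with the macrophage list was weaker in the difference than at T0, and for SPTSSA it was not seen. The T0 division therefore did not carry over to every gene named there. Coefficients with the macrophage list at T1 are not given here.

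The relations of ORMDL3 that passed were with the secretory and squamous epithelial lists. Its T1 minus T0 difference had an r of 0.77 with the change of the secretory list of 9 genes in 10 entries (rho 0.83, adjusted permutation p = 0.00528 for r and 0.00446 for rho), and of 0.83 without the 2 horses farthest from the median. With the change of the squamous list (KRT4, KRT13, TGM1 and TP63) r was 0.76 (rho 0.75, adjusted permutation p = 0.00600 for r, and r = 0.68 without the 2 farthest horses), and at T1 itself 0.67 (rho 0.75, adjusted permutation p = 0.0269 for r). The relation with the secretory list at T1 did not pass (r = 0.49, adjusted permutation p = 0.139), nor did those at T0 with the secretory list (r = 0.31) and the squamous list (r = 0.46). ORMDL2 had an r of 0.80 with the squamous list at T1 (rho 0.79, adjusted permutation p = 0.00528 for r, and r = 0.69 without the 2 farthest horses), so this relation was not particular to ORMDL3. With the ciliated list the r of the change was 0.55 and with the neutrophil list 0.54, neither of which passed (adjusted permutation p = 0.0929 and 0.1001), and with the macrophage list it was -0.49. The mean change of the secretory list ran from -2.49 to 3.65 over the horses, and 8 of its 9 genes were higher at T1 on average (median 0.52), 1 of them called. Neutrophil markers were higher at T1 as well, in 11 of 12 genes tested (median 0.55, 6 at an unadjusted p under 0.05 and 1 called), and mast cell and eosinophil markers were lower in 5 of 5 (median -0.42, 3 at an unadjusted p under 0.05 and none called in limma). With the secretory list mean as a covariate the ORMDL3 training difference was 0.26 (SE 0.08, adjusted p = 0.0600 in limma), with the macrophage list mean it was 0.38 (SE 0.09, adjusted p = 0.0209), and with the neutrophil, T cell and ciliated list means together 0.27 (SE 0.11, adjusted p = 0.454), against 0.35 without covariates.

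**Figure D4:**
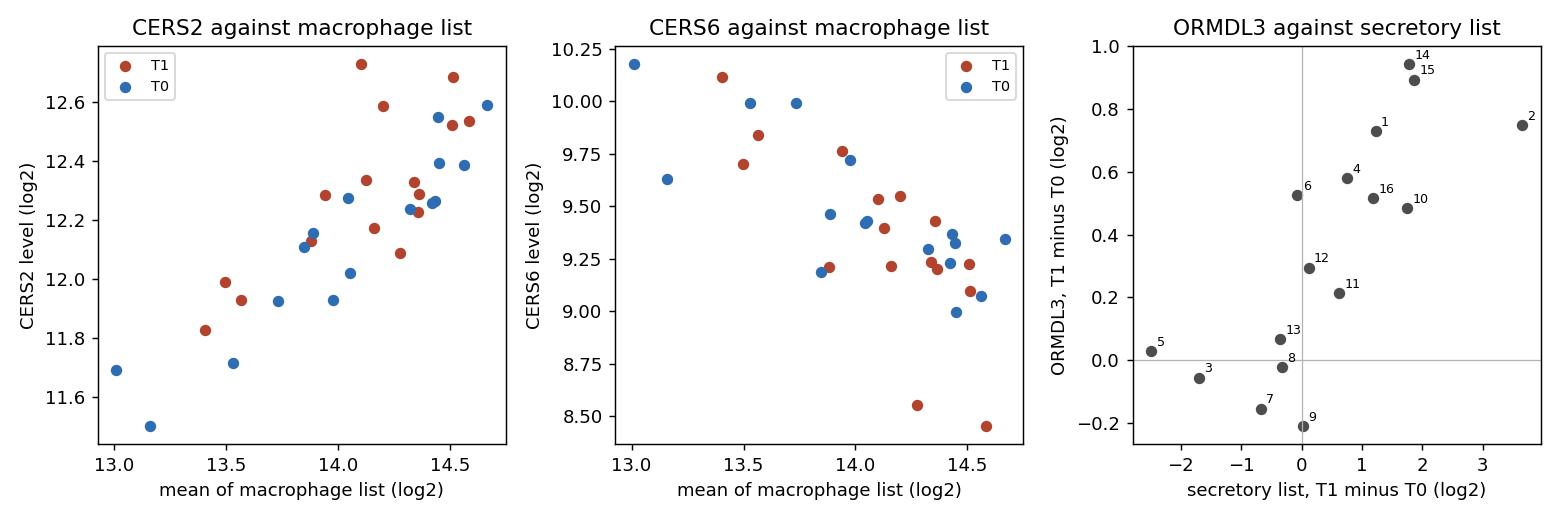
Left and middle, level of CERS2 and of CERS6 (log2, y axes) against the mean log2 level of the macrophage list (x axes), 1 point per horse at T1 (red) and T0 (blue). Right, T1 minus T0 of ORMDL3 against that of the secretory list, with horse numbers; CERS2 rises and CERS6 falls along the macrophage axis at T0 (r = 0.93 and -0.79), and the ORMDL3 difference goes with the secretory one (r = 0.77).

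The 3 High_N horses were set against the other 13 at T1 to see whether the members differed with neutrophilic cytology. No member was called, against 0.164% of 14630 genes (24 genes, all higher in High_N). Leaving out 1 horse at a time gave 0 genes without horse 2 (546 at an unadjusted p under 0.05), 2 without horse 3 and up to 33 without horse 15, and the 3 marker covariates gave 0 in limma (327 at an unadjusted p under 0.05). None of the 10 members had an unadjusted p under 0.05 in limma, against 2.78% of all genes. DEGS1 had the largest difference. Its levels were 11.21, 11.40 and 11.11 in High_N horses 2, 3 and 10, against a lowest, median and highest of 9.71, 10.69 and 11.52 in the other 13. High_N values lay in the upper part of the range of the others, and the difference was 0.50 (95% interval -0.10 to 1.10; exact permutation p = 0.116, two-sided, where 0.00179 is the smallest that 3 against 13 allows).

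SPTSSA had levels of 10.05, 9.81 and 9.61 in High_N horses, against a lowest, median and highest of 9.51, 10.30 and 11.30 in the others, a difference of -0.43 (SE 0.27, exact permutation p = 0.1375). ORMDL1 averaged 7.75 ± 0.47 in High_N horses (n = 3) and 8.14 ± 0.36 in the others (n = 13), a difference of -0.39 (95% interval -0.94 to 0.16). ORMDL3 levels were 10.39, 9.82 and 10.05 in High_N horses, against 9.51, 10.15 and 11.11 as the lowest, median and highest of the others. The ORMDL3 difference was -0.15 (95% interval -0.78 to 0.49), which leaves room for a difference of the size seen with training in either direction. The remaining 6 members had differences of -0.13 to 0.11.

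The neutrophil list averaged 9.16 ± 0.46 in High_N horses and 8.28 ± 0.41 in the others at T1, with TREM1 and RETN, genes of activated neutrophils and myeloid cells, called higher. Other lists also differed in direction with the class: 24 of 24 ciliated genes were lower in High_N (median -0.59, none at an unadjusted p under 0.05) and 13 of 14 T cell genes were higher (median 0.37, 1 at an unadjusted p under 0.05). The part of these cell types in the values of the members was not tested. The marker covariates are list means of the same libraries and cannot tell the share of a cell type from its RNA per cell. No gene of the sphingolipid lists was called for High_N in limma; those with an unadjusted p under 0.05 were SPTLC3, with a difference of -0.54 (SE 0.19), and S1PR5, a sphingosine 1-phosphate receptor of low level in these cells, with one of 1.04 (SE 0.46). At T0 none of 14644 genes was called between the same horses in limma (493 at an unadjusted p under 0.05, none of them a member), and the ORMDL3 difference was -0.20 (95% interval -0.54 to 0.14).

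The 11 EIPH horses were set against the 5 unaffected horses at T1 to see whether the members differed with haemorrhage. None of 14630 genes was called in limma, 0% for members and for all genes, while 18.3% of all genes had an unadjusted p under 0.05. Of the 10 members, 2 had such a p, CERS2 and CERS6, and CERS5 was next. CERS2 had a lowest, median and highest level of 12.09, 12.33 and 12.73 in EIPH horses, against 11.83, 11.93, 11.99, 12.17 and 12.34 in the 5 unaffected horses. The groups overlapped, with 5 of 11 EIPH horses above every unaffected horse, and the difference was 0.35 (95% interval 0.06 to 0.64; adjusted p = 0.201 in limma; exact permutation p = 0.0112, two-sided and unadjusted).

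CERS5 had a lowest, median and highest level of 10.71, 11.13 and 11.84 in EIPH horses, against 10.42, 10.58, 10.84, 10.86 and 10.97 in unaffected horses. The CERS5 difference was 0.37 (95% interval -0.01 to 0.75; adjusted p = 0.279 in limma; exact permutation p = 0.0497, unadjusted), with 6 of 11 EIPH horses above every unaffected horse. CERS6 went the opposite way, with 8.45, 9.23 and 9.76 as the lowest, median and highest in EIPH horses, against 9.21, 9.40, 9.70, 9.84 and 10.11 in unaffected horses. The CERS6 difference was -0.45 (95% interval -0.89 to -0.00372; adjusted p = 0.270 in limma; exact permutation p = 0.0495, unadjusted), with 5 of 11 EIPH horses below every unaffected horse.

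**Figure D5:**
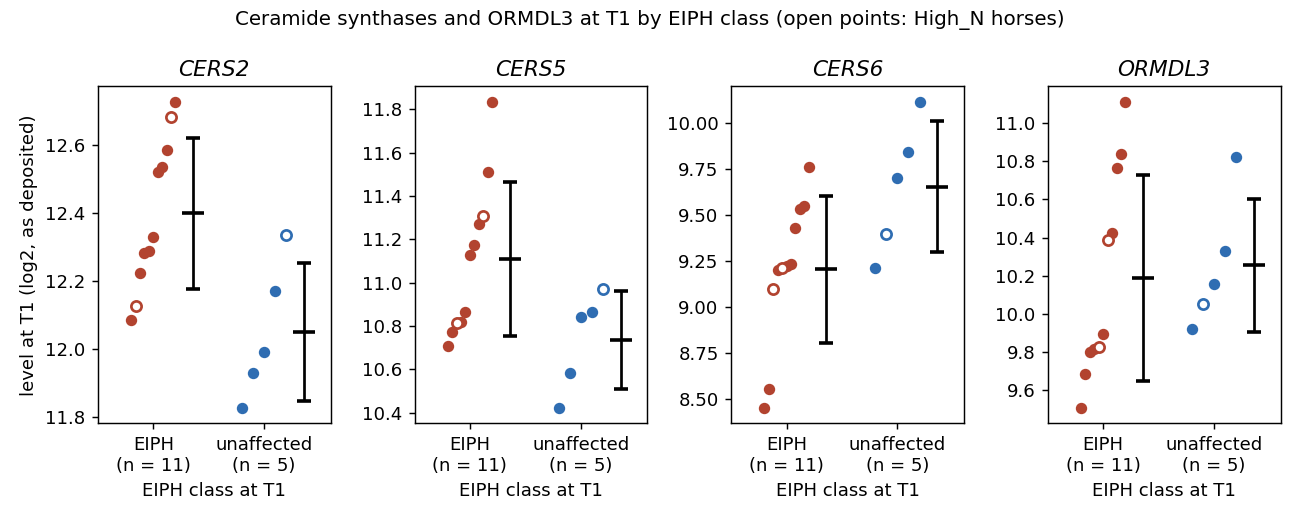
Level at T1 (log2, y axes, 1 scale per gene) of CERS2, CERS5, CERS6 and ORMDL3 in EIPH (red, n = 11) and unaffected (blue, n = 5) horses; points are horses, open points High_N horses, and black bars the mean and SD. The groups overlap in every panel, with EIPH means higher for CERS2 (12.40 against 12.05) and CERS5 (11.11 against 10.74) and lower for CERS6 (9.21 against 9.65). None of these differences passed adjustment in limma.

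Cell type markers differed between the same groups of horses. At T1 the ciliated list had a lowest, median and highest mean of 7.83, 9.60 and 11.33 in EIPH horses, against 9.65, 11.14 and 11.79 in unaffected horses, with 24 of 24 genes lower in EIPH and 20 of them at an unadjusted p under 0.05. The macrophage list averaged 14.28 ± 0.23 in EIPH horses and 13.75 ± 0.36 in unaffected horses. With the macrophage list mean as a covariate the EIPH differences were 0.12 (SE 0.18) for CERS2, 0.14 (SE 0.24) for CERS5 and 0.05 (SE 0.25) for CERS6. With the secretory list mean they were 0.27, 0.35 and -0.47. Before training, at T0, none of 14644 genes was called between the same horses in limma (172 at an unadjusted p under 0.05), and the differences were 0.20 for CERS2 (95% interval -0.14 to 0.53), 0.19 for CERS5 (95% interval -0.11 to 0.48) and -0.06 for CERS6 (95% interval -0.44 to 0.33).

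ORMDL3 at T1 averaged 10.19 ± 0.54 in EIPH horses and 10.25 ± 0.35 in unaffected horses, a difference of -0.07 (95% interval -0.60 to 0.46), and both the highest value (11.11) and the lowest (9.51) were in EIPH horses. The other 6 members had differences of -0.22 to 0.29. In the sphingolipid lists no gene was called in limma for EIPH. An unadjusted p under 0.05 was found for 6 of 20 breakdown genes and 2 of 11 complex lipid genes, against 18.3% of all genes. Differences in these lists ran from -1.26 to 0.70 and from -1.17 to 0.47. SMPDL3B, a phosphodiesterase of macrophage membranes, had a difference of 0.65 (SE 0.23, adjusted p = 0.171 in limma). NAAA, which cleaves N-acylethanolamines and is an acid ceramidase relative, had one of 0.50 (SE 0.20, adjusted p = 0.197 in limma). UGCG, the glucosylceramide synthase, had one of 0.37 (SE 0.17). SPTSSB, the alternative small subunit, had a difference of -1.11 (SE 0.49) at a low mean level of 4.26.

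Whether the training difference itself varied with class was tested as an interaction. No gene of 14643 was called in limma for High_N (172 at an unadjusted p under 0.05) or for EIPH (218), and no member had an unadjusted p under 0.05. The T1 minus T0 difference of ORMDL3 averaged 0.39 ± 0.41 in High_N horses and 0.34 ± 0.39 in the others, which differed by 0.05 (95% interval -0.48 to 0.59). It averaged 0.36 ± 0.42 in EIPH horses and 0.32 ± 0.33 in unaffected horses, which differed by 0.05 (95% interval -0.41 to 0.50). The member with the smallest p was CERS6, whose T1 minus T0 difference averaged -0.26 ± 0.45 in EIPH horses and 0.14 ± 0.33 in unaffected horses, an interaction of -0.39 (95% interval -0.88 to 0.09; exact permutation p = 0.108, two-sided). Across the classes the order of ORMDL3 means at T1 was EIPH-unaffected, other neutrophil class, EIPH and High_N. Both splits are of the same 16 horses and their classes share horses, so this order does not compare separate groups. Within each split the classes did not differ beyond their spread.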

How the data were processed

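TW derived cells of 16 horses at T1 and T0 gave 32 libraries. The authors made rRNA-depleted, strand-specific libraries, sequenced them as paired ends, used cutadapt for trimming and FastQC with MultiQC for quality, and assigned reads to EquCab3.0 transcripts by kallisto 0.46.0.1; the authors tested with DESeq2. Although the deposited table carries the title raw counts, it holds log2 values. These appear to be adjusted for library size and shrunk at low expression, but the transform is not given in the sources used here and this was not tested. Differences may therefore understate changes of low genes. Depth is unknown, so no interval or floor from counts is given.

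Of 21357 genes, 1899 at 0 in every library were left out. Comparisons used limma 3.58.1 in R 4.3.3 (eBayes with trend), over genes averaging 3 or more on the log2 scale in the libraries compared, with Benjamini-Hochberg adjustment over all of them and a threshold of 0.05. Training and interactions had the horse as block. The horse numbers pair the samples because both libraries came from the same animal. The deviations of the T1 and T0 libraries of a horse correlated with r from -0.51 to 0.79 (median 0.35). This r was -0.51, -0.48 and 0.04 in High_N horses 2, 3 and 10, and -0.42 in horse 5 of the others. It was over 0.1 in 12 of 16 horses. Single values were also tested by exact sign-flip over 16 horses (65536 sign patterns) or exact permutation over horses, and correlations with 100000 permutations (smallest p 1e-05). Marker list means are means of log2 values over all entries of the genes measured, so a gene with more than 1 entry counts more than once.

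Time points come from the labels; High_N and EIPH classes come from the study's text by horse number. Named genes were the members, list genes that passed in the comparison described (otherwise up to 2 with the smallest p), the 17q21 neighbours, and the 5 genes most like ORMDL3 by either measure; ATF6 was named after its value was seen. The members and lists were chosen with earlier results of these data known. Alternatives were other filters, scaling, limma settings, marker covariates, no block, and leaving out horses; the covariate fits with 1 list and the leaving out of horses 1, 14, 15 and 16 were chosen after seeing the data, as were the correlations.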

Additional observations from a re-analysis of the deposited data

How the results depend on the processing

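ORMDL3 had a positive training difference in every alternative, and its call did not hold in several. At the same difference of 0.35, the adjusted p in limma was 0.0531 with no filter on low values, 0.0514 with no trend and 0.116 with no replicate block, and 0 members were called in each. The difference was 0.27 (adjusted p = 0.454) with the 3 cell marker covariates, 0.26 (0.0600) with the secretory list covariate, 0.34 (0.129) without the High_N horses and 0.21 (0.334) without horses 1, 14, 15 and 16, again with 0 members called. The call held at a mean log2 of at least 7 (adjusted p = 0.0345), with robust eBayes (0.0432), with libraries shifted to one median (0.38, 0.0347) and with the macrophage list covariate (0.0209). Leaving out 1 horse at a time gave 0 to 1 members called. The cause of these changes was not tested. Over all genes, the number called for training ran from 77 to 1847 when 1 horse was left out; it was 454 with no filter, 1381 at a mean log2 of at least 7, 633 with no trend, 348 with the secretory and 1940 with the macrophage list covariate, 15 with no replicate block and 25 without the High_N horses. With libraries shifted to one median 519 genes were called, 84.0% of them upregulated, against 61.2% of the 930. For High_N at T1 the number called was 13 with no filter and 0 with the 3 marker covariates, and 0 to 33 when 1 horse was left out, against 24. The block changed no other call of a member.

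Under the other settings, 48 values of uncalled members changed sign, mostly near 0. With the 3 marker covariates, training gave ORMDL1 0.16 and CERS6 0.0063; High_N at T1 gave SPTLC1 0.066, SPTLC2 0.24, CERS2 -0.13, CERS5 -0.19 and CERS6 0.28; High_N at T0 gave ORMDL1 0.030, ORMDL3 0.050, SPTLC1 -0.016 and CERS6 0.044; EIPH at T1 gave ORMDL1 0.13, ORMDL2 0.0011, ORMDL3 0.14, SPTLC2 -0.20 and DEGS1 -0.22; EIPH at T0 gave ORMDL1 0.067, ORMDL3 0.061 and CERS6 0.061; and the High_N interaction gave ORMDL1 0.054, ORMDL2 -0.16, ORMDL3 -0.042, CERS2 -0.13, CERS5 -0.17 and CERS6 0.17. With the macrophage covariate, training gave ORMDL1 0.011 and EIPH at T1 gave ORMDL1 0.39, ORMDL2 0.13, ORMDL3 0.063, SPTLC2 -0.072, CERS6 0.045 and DEGS1 -0.0017. With the secretory covariate, training gave DEGS1 0.050 and EIPH at T1 gave ORMDL3 0.15 and SPTLC2 -0.063. Without the High_N horses, training gave ORMDL1 0.0055 and EIPH at T0 gave SPTLC2 0.020; without horses 1, 14, 15 and 16, training gave ORMDL1 0.023 and DEGS1 0.10. With libraries shifted to one median, training gave DEGS1 0.021, High_N at T1 ORMDL2 0.020 and SPTLC2 0.026, High_N at T0 CERS2 0.014 and CERS6 0.015, EIPH at T1 ORMDL3 0.048, EIPH at T0 SPTLC2 0.047 and CERS6 0.0067, and the EIPH interaction DEGS1 0.041.

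When 1 horse was left out, 29 of 70 member differences changed sign in at least 1 fit. Their ranges were, for training, ORMDL1 -0.11 to 0.030 and DEGS1 -0.065 to 0.073, beside ORMDL3 at 0.31 to 0.39. For High_N at T1 they were ORMDL2 -0.24 to 0.12, SPTLC1 -0.14 to 0.11, SPTLC2 -0.20 to 0.19, CERS2 -0.038 to 0.24 and CERS5 -0.091 to 0.16. For High_N at T0 they were ORMDL1 -0.48 to 0.18, ORMDL2 -0.075 to 0.042, CERS2 -0.15 to 0.20, CERS5 -0.18 to 0.10, CERS6 -0.37 to 0.22 and DEGS1 -0.010 to 0.43. For EIPH at T1 they were ORMDL1 -0.30 to 0.0053 and ORMDL3 -0.16 to 0.073, and at T0 SPTLC2 -0.14 to 0.086 and CERS6 -0.13 to 0.064. For the High_N interaction they were ORMDL1 -0.84 to 0.19, ORMDL2 -0.28 to 0.19, ORMDL3 -0.12 to 0.28, SPTLC1 -0.20 to 0.0038, CERS2 -0.24 to 0.39, CERS5 -0.19 to 0.33, CERS6 -0.34 to 0.30 and DEGS1 -0.0099 to 0.53. For the EIPH interaction they were ORMDL1 -0.11 to 0.13, ORMDL3 -0.085 to 0.11, SPTLC2 -0.040 to 0.27 and DEGS1 -0.10 to 0.11. Another 516 values under the other settings and 1031 values with 1 horse left out kept direction and side of the threshold. Counted apart from these were 4 exact tests with an unadjusted p under 0.05 (CERS5 for training, and CERS2, CERS5 and CERS6 for EIPH at T1). Without depth per library, the precision of low genes cannot be set.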
